A study of Mus musculus with 2 samples.

Results

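Interferon regulatory and response genes were examined in ureters of mouse embryos at E16.5. The genes were chosen by symbol from a list of interferon regulatory factors, receptor chains, RNA sensors, induced effectors and MHC class I genes, with no use of measured values. All 37 of them had at least 1 probe, with 49 probes in total, among 29982 genes on the arrays.

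Interferons are secreted proteins that bind receptor chains at the cell surface and signal through JAK kinases and STAT proteins. A complex that holds STAT2 and IRF9 binds the interferon-stimulated response element (ISRE) in promoters, and the genes it switches on hinder viruses and load peptides onto MHC class I molecules. Many tissues keep a low level of these transcripts without infection, and tissue macrophages are among the cells that express them.

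RNA of pooled ureters of the NMRI strain was hybridised to 2 dual-colour oligonucleotide arrays, array 1 with female and array 2 with male pools. Each array carried a control pool, Pparg(fl/?), against a Pparg-cKO pool, Pax2-cre/+; Pparg(fl/fl). Pparg encodes a nuclear receptor, and Pax2-cre recombines in the nephric duct and its derivatives, the ureteric epithelium and the collecting duct, so that mesenchymal, endothelial and blood cells of the mutant ureter were not targeted. The stage label of the Pparg-cKO channel reads E14.5, whereas titles and protocols read E16.5.

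Which genotype carried which dye was not settled. The RNA carrying AlexaFluor647 (red) in the female and AlexaFluor555 (green) in the male hybridisation is termed RNA A, and its counterpart RNA B. RNA A is control by the dye labels and Pparg-cKO by the direction of the study's text, so these oppose each other, and every ratio is RNA A divided by RNA B on the log2 scale with no direction between genotypes. Both arrays lay on 1 slide, and dye was exchanged together with sex, so effects of dye and sex cannot be told apart. Pparg itself had RNA A signals of 11300 (array 1) and 12890 (array 2) against RNA B signals of 7430 and 7872, and its log2 ratio averaged 0.66 ± 0.08 (SD, n = 2). The paper detected a mutant Pparg mRNA that lacks the deleted exons, so these signals do not tell which RNA was Pparg-cKO. On both arrays 70.4% of red spots were well above background, against 80.3% of green spots on array 1 and 80.4% on array 2. The number of arrays, 2, limits the precision of every value. Over 21429 genes well above background in the same RNA on both arrays, log2 ratios had a Pearson r of -0.0547 between the arrays. Spearman rho was -0.249, so across genes the ratios of 1 array did not rise with those of the other. In pooled tissue, fewer cells of a type and less RNA per cell cannot be told apart. Whether the pools were independent litters is not given in the sources used here, so the spread between arrays may be partly technical.

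The promoters of these genes were searched for the ISRE core, spelled GAAA, any 2 bases and GAAA, or on the other strand TTTC, any 2 bases and TTTC. RefSeq promoter windows of 300 bases (GRCm38.p6), from 250 before to 50 after a start site, were found for 32 of the 37 genes. The core was present in 14 of these 32 genes (43.8%), against 3.99% of the 27025 genes with a window. By role it lay in 9 of 13 effectors, 2 of 2 RNA sensors, 2 of 9 transcription factors, 1 of 6 MHC class I genes and 0 of 2 receptor chains. A second motif, the gamma-activated sequence spelled TTCNNNGAA, which reads the same on both strands, was present in 10 of the 32 genes (31.2%), against 9.55% of all genes. The 2 spellings were searched separately, so their matches may overlap, and a match describes letters and not a bound site. The 250 bases before the start site are shown for 4 effectors that hold the core and for Tap1, which holds none and whose window overlaps that of its neighbour Psmb9 on the other strand. Capitals mark the core.
Ifit1 (chr19:34640639-34640888, plus strand): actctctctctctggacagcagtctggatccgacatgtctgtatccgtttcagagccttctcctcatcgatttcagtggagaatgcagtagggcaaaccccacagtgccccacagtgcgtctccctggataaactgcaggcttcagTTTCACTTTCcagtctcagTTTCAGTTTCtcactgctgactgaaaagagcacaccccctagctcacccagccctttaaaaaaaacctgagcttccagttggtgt
Ifit3 (chr19:34583279-34583528, plus strand): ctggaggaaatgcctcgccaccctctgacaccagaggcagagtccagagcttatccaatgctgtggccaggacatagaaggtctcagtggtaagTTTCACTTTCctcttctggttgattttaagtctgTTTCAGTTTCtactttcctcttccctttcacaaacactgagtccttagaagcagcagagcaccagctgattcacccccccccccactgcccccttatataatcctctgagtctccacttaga
Isg15 (chr4:156200819-156201068, minus strand): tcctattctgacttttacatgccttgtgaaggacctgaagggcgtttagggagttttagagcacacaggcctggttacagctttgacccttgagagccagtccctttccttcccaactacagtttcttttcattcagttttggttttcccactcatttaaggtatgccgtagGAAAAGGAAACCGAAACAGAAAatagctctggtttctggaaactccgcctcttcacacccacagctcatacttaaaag
Oas1a (chr5:120907526-120907775, minus strand): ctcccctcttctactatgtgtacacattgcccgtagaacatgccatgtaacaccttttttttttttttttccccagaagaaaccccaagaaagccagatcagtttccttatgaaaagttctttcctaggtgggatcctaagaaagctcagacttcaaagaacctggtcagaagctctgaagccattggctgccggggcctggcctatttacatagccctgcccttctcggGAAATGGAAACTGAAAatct
Tap1 (chr17:34187306-34187555, plus strand): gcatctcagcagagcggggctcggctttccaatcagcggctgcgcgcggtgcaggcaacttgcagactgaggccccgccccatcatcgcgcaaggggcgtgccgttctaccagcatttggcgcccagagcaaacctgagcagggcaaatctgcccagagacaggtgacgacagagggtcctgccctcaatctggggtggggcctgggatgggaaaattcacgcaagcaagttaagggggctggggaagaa

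Ifit1 and Ifit3 lie in 1 cluster on chromosome 19 and both held the spellings TTTCACTTTC and TTTCAGTTTC. In Ifit1 they began at positions -104 and -85 from the start site, and in Ifit3 at -156 and -122. Isg15 held 3 overlapping matches, the first beginning at position -78. Among tested genes with a window, the median mean log2 ratio was 0.10 for the 14 with the core and 0.12 for the 16 without it.

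None of the 37 genes passed the filter of the study's methods, taken here as a difference of 1.5-fold or more with the same RNA brighter on each array, and a signal of 100 or more in that RNA each time. Of all genes on the arrays, 0.157% passed it with RNA A the brighter and 0.23% with RNA B. In opposite directions on the arrays, again 0 of the 37 passed, against 0.43% of all genes. For limma, genes had to be well above background in the same RNA on both arrays, which 34 of the 37 were. Irf4, Irf7 and Mx1 were well above background in green only and were not tested. limma called 0 of the 34 at an adjusted p of 0.05, while among 21429 tested genes it called 0.126% with RNA A the brighter and 0.187% with RNA B. The lowest adjusted p by limma was 0.34, for Ifit1. At an unadjusted p of 0.05, limma picked 3 of the 34, namely Ifit1, Tap1 and Nlrc5, and 3.78% of all tested genes. The smallest two-sided p that exact sign-flipping of 2 arrays allows is 0.5.

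Without regard to size, RNA A was the brighter on both arrays for 17 of the 34 tested genes, against 21.6% of all tested genes, and for 7 RNA B was the brighter each time, against 17.4%. A further 5 were brighter in red on both arrays (28.4% of all tested genes) and 5 in green (32.6%). On the log2 scale their median was 0.09 (array 1) and 0.09 (array 2), beside 0.00 and 0.03 for all tested genes. With normexp background correction and loess, the number brighter in RNA A on both arrays was 12 of 34 (35.3%), against 19.1% of all tested genes. Of the 34, 12 stayed within 1.2-fold on both arrays.

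**Figure D1:**
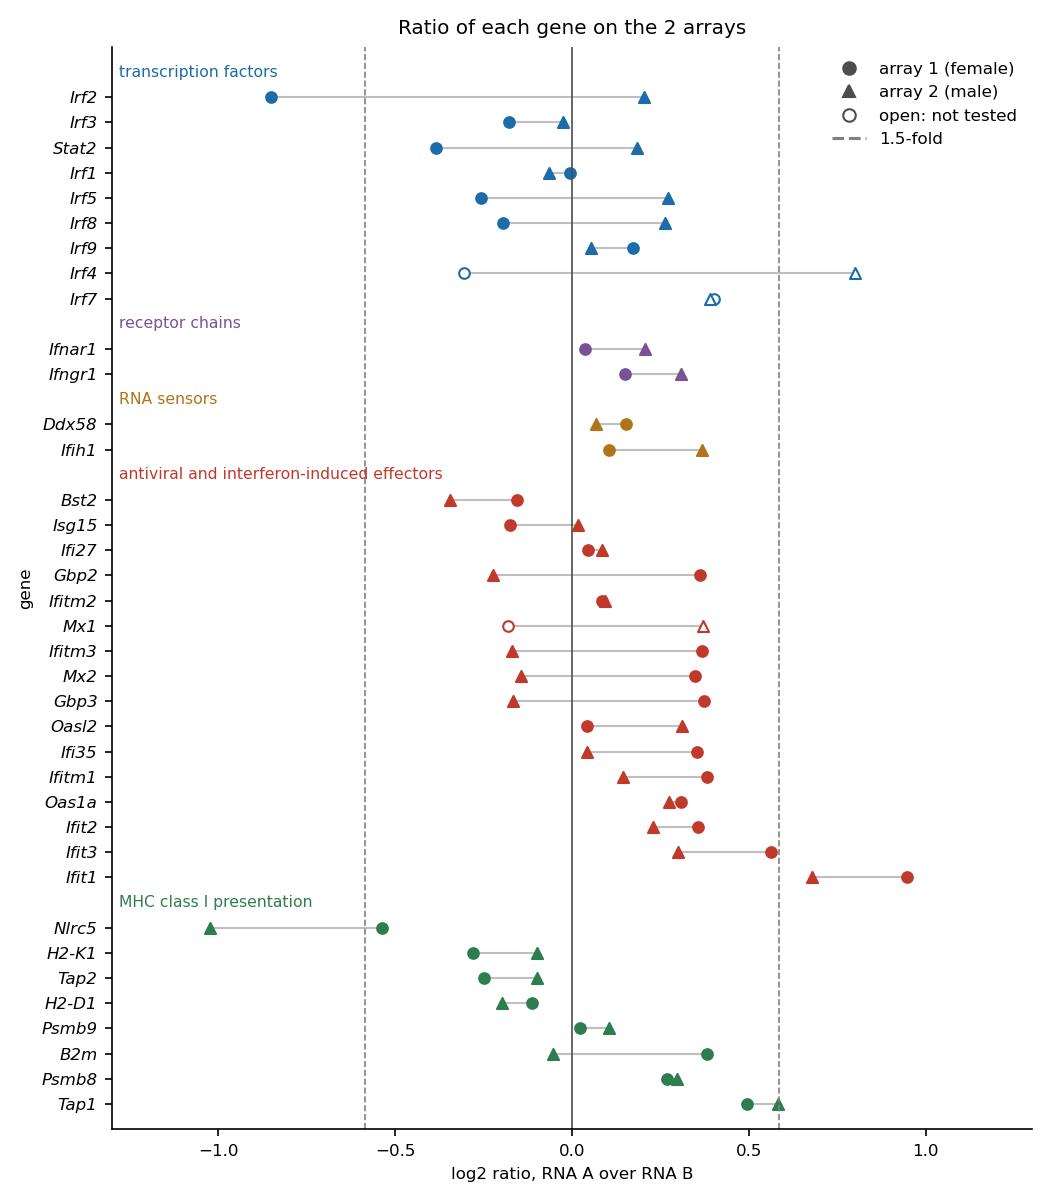
Log2 ratio of RNA A over RNA B (horizontal axis) of each of the 37 genes, grouped by role; circles are array 1 (female), triangles array 2 (male), open symbols genes not tested, and dashed lines 1.5-fold. Only Ifit1 lies beyond 1.5-fold on the same side on both arrays.

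Most interferon-induced effectors were brighter in RNA A, by less than 1.5-fold in the authors' processed signals for all but Ifit1. RNA A was the brighter on both arrays for 9 of 15 tested effectors, against 21.6% of all tested genes, and RNA B for 1 (Bst2), against 17.4%. The group's median ratio (log2) was 0.35 for array 1 and 0.09 for array 2. With normexp and loess the 9 became 7. Ifit1, which binds viral RNA that lacks the host's cap modification, had RNA A signals of 27.2 (array 1) and 32.5 (array 2) against RNA B signals of 14.1 and 20.3. Both RNA A values were above both RNA B values. The share of all genes separated in this way was not counted, here or for the genes below, and signals were not scaled between the arrays. Other interferon genes were separated too, such as Ifi35, Ifitm1, Ifih1, Ddx58 and Ifngr1, and H2-K1 and H2-D1 with RNA B above. Its log2 ratio averaged 0.81 ± 0.19 (SD, n = 2), with all 4 signals well above background but under 100. With normexp and loess it averaged 0.43 ± 0.10, under 1.5-fold. Its probe lies at chr19:34723796-34723855 in the files' coordinates (mm9).

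The neighbouring genes Ifit2 and Ifit3 encode related RNA-binding proteins. Ifit3 had RNA A signals of 54.2 and 55.3 against RNA B signals of 36.7 and 44.9, and its log2 ratio averaged 0.43 ± 0.19 (SD, n = 2). Ifit2 had 258 and 237 against 202 and 202, averaging 0.29 ± 0.09. For both genes, the RNA A signals lay above the RNA B signals without overlap, with the share of all genes not counted. Neither reached 1.5-fold on either array.

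Oas1a makes the oligoadenylates that switch on RNase L. RNA A gave signals of 359 and 350 and RNA B of 290 and 289, and the log2 ratio averaged 0.29 ± 0.02 (SD, n = 2). The RNAs did not overlap, with the share of all genes again not counted. A second, dimmer probe gave a mean of 0.35. Oasl2, a related protein, had a mean of 0.18 ± 0.19. Ifitm1, Ifitm2 and Ifitm3 are membrane proteins that hinder the entry of viruses, and all 3 were bright, with signals from 2394 to 12560. Ifitm1 had log2 ratios of 0.38 and 0.14, Ifitm2 of 0.08 and 0.09, and Ifitm3 of 0.37 and -0.17, so that Ifitm3 was brighter in red on both arrays. The probe of Ifitm2 shares 20 bases with an unnamed probe.

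The guanylate-binding proteins Gbp2 and Gbp3, and Mx2, an antiviral GTPase, were also brighter in red on both arrays. Gbp2 had log2 ratios of 0.36 and -0.22, Gbp3 of 0.37 and -0.17, and Mx2 of 0.35 and -0.14. The remaining effectors were Ifi35, with ratios of 0.35 and 0.04, Ifi27, with 0.04 and 0.09, the ubiquitin-like modifier Isg15, with -0.18 and 0.02, and the virus tether Bst2, with -0.15 and -0.35. Isg15 was dim, with signals from 37.7 to 47.3, and its probe shares 20 bases with a probe of Gm9706. Mx1 had signals from 7.38 to 9.59, not well above background in red.

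Markers of macrophages and myeloid cells were likewise mostly brighter in RNA A. All 12 markers on the arrays were well above background in all 4 channels. RNA A was the brighter on both arrays for 10 of the 12, against 21.6% of all tested genes, and RNA B for 0, against 17.4%. Their median ratios (log2) were 0.24 and 0.13. Their mean log2 ratios ran from 0.12 (Mrc1) to 0.44 (Fcgr1). Fcgr1 was dim, with signals from 12.4 to 27.3, and changed sign, with -0.26 and 1.14. Ptprc changed sign the other way, with 0.46 and -0.18. The summed signals of the 12 markers were 15240 and 15040 for RNA A against 12700 and 13520 for RNA B. Of 7 lymphoid markers, 3 were well above background in all 4 channels, and only these 3 were tested. Among the 3, RNA A was the brighter on both arrays for 0, against 21.6% of all tested genes, and RNA B for 2, against 17.4%. Ncr1 was not well above background in any channel. Endothelial markers were brighter in red on both arrays for 5 of 7, against 28.4% of all tested genes. All 4 tested nephron markers were brighter in RNA B. The labelled tissue was met by its markers, with 10 of 10 urothelial and 7 of 7 mesenchymal or smooth muscle genes well above background in all 4 channels. The urothelial genes had a median log2 ratio of -0.47 and ran from -1.69 (Upk3b) to 0.47 (Krt5), with 5 of 10 brighter in RNA B on both arrays and 1 in RNA A. The mesenchymal and smooth muscle genes ran from -0.80 (Myh11) to 0.01 (Tbx18), with 3 of 7 brighter in RNA B and 0 in RNA A. Which part such cells had in the effector ratios was not tested.

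**Figure D2:**
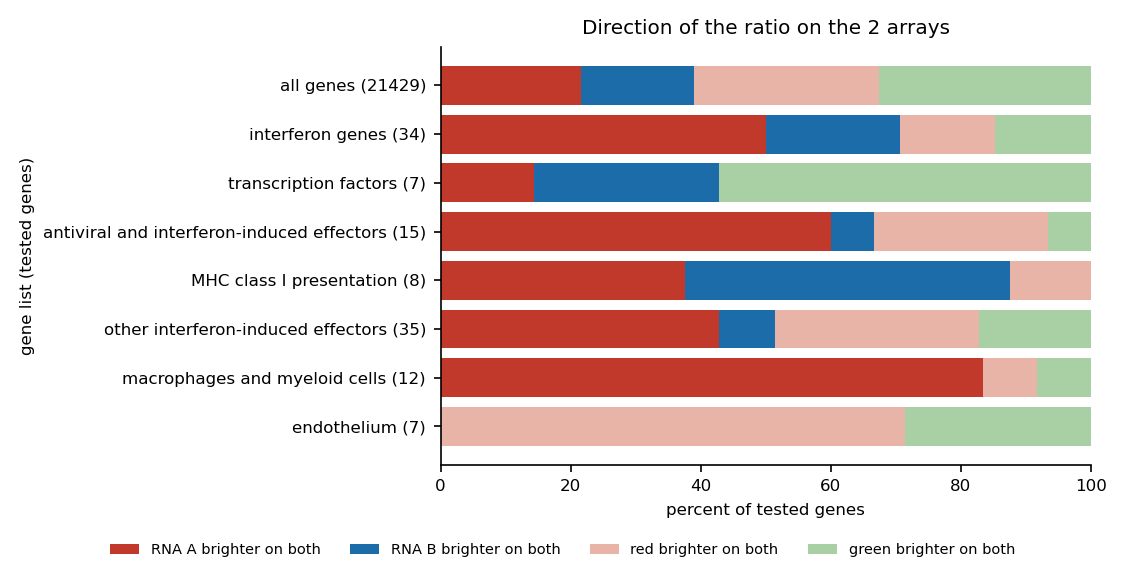
Share of tested genes (horizontal axis, percent) by the direction of their ratio on the 2 arrays, for all tested genes, the interferon genes and the lists named, with the number tested in parentheses. RNA A was brighter on both arrays for 60% of the effectors and 83.3% of the macrophage and myeloid markers, against 21.6% of all tested genes.

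MHC class I genes were split in direction. Of the 8, all tested, 3 had RNA A the brighter on both arrays, against 21.6% of all tested genes. RNA B was the brighter on both for 4, against 17.4%, and B2m was brighter in red. Tap1, a subunit of the transporter that carries peptides into the endoplasmic reticulum, had RNA A signals of 273 and 256 against RNA B signals of 194 and 171. The RNAs did not overlap, with the share of all genes not counted. The log2 ratio averaged 0.54 ± 0.06 (SD, n = 2), under 1.5-fold on each array. Its probe lies at chr17:34330854-34330913 (mm9). The immunoproteasome subunit Psmb8 had ratios of 0.27 and 0.30, and its partner Psmb9, the neighbour of Tap1, had 0.02 and 0.11. Tap2, the partner subunit of Tap1, was brighter in RNA B, with -0.25 and -0.10 and signals from 34.9 to 50.5.

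Nlrc5, the transactivator of MHC class I genes, had RNA A signals of 17.0 and 20.3 against RNA B signals of 24.7 and 41.3. RNA A was below RNA B without overlap, with the share of all genes not counted. The log2 ratio averaged -0.78 ± 0.34 (SD, n = 2), with all 4 signals well above background. The filter's signal of 100 was not reached in any channel, and a second probe, with signals under 7, gave -0.06. The mean of Nlrc5 was -0.45 with normexp and loess and -0.42 when both probes were averaged. The class I heavy chains were the same way round, H2-K1 with -0.28 and -0.10 and H2-D1 with -0.11 and -0.20. A second H2-K1 probe gave a mean of -0.14, and shares 20 bases with probes of H2-T23 and another locus. B2m, the light chain of class I molecules, had signals from 16610 to 21630 and log2 ratios of 0.38 and -0.05.

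Of 7 tested transcription factors, 4 (Irf2, Irf5, Irf8 and Stat2) were brighter in green on both arrays, against 32.6% of all tested genes. RNA B was the brighter on both arrays for 2 (Irf1 and Irf3, against 17.4%) and RNA A for 1 (Irf9, against 21.6%). Another 28.4% of all tested genes were brighter in red on both arrays, so a change of sign was common. Irf2, which competes with Irf1 for its sites, had RNA A signals of 251 and 377 against RNA B signals of 453 and 327. Its log2 ratios of -0.85 and 0.20 point in opposite directions and average -0.32 ± 0.75 (SD, n = 2), and the RNAs overlap.

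The other factors showed smaller ratios. Stat2, which is part of the ISRE-binding complex with Irf9, had -0.38 and 0.18, Irf5 -0.26 and 0.27, and Irf8, a factor of the myeloid lineage, -0.19 and 0.26. Irf9 had 0.17 and 0.05, Irf3, which acts downstream of the RNA sensors, -0.18 and -0.02, and Irf1 -0.01 and -0.07. Irf7, which amplifies the type I interferon response, had signals from 4.87 to 11.6 and Irf4, a factor of lymphoid cells, from 3.29 to 5.73, both not well above background in red.

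By their brightest probes, the receptor chains and RNA sensors had slightly more signal in RNA A on both arrays. With normexp and loess, 1 of the 2 receptor chains did. Ifnar1, a chain of the type I receptor, had log2 ratios of 0.04 and 0.21. Its dimmer probes changed sign, with 0.19 and -0.14 (mean 0.02) and with 0.32 and -0.36 (mean -0.02). Ifngr1, the ligand-binding chain of the interferon gamma receptor, had 0.15 and 0.31. The cytoplasmic RNA sensors Ddx58 (RIG-I) and Ifih1 (MDA5) had ratios of 0.15 and 0.07 and of 0.10 and 0.37. Neither the receptor chains nor the sensors reached 1.5-fold on an array.

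**Figure D3:**
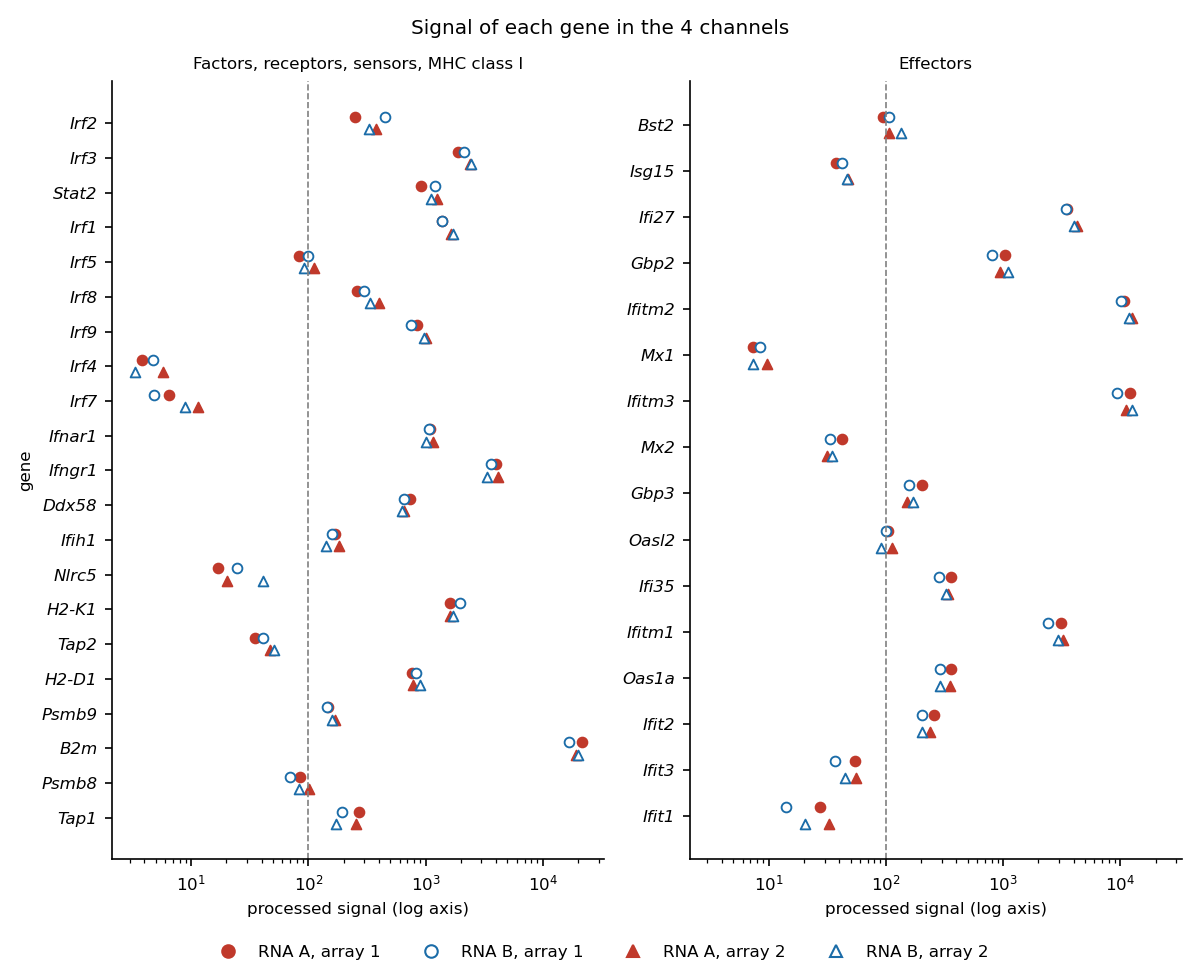
Processed signal (horizontal log axis) of each gene in the 4 channels; red filled symbols are RNA A and blue open symbols RNA B, circles array 1 and triangles array 2, and the dashed line a signal of 100. Ifit1, Ifit3, Tap1 and Oas1a have both RNA A signals to the right of both RNA B signals, as do others such as Ifi35 and Ifitm1. H2-K1 and H2-D1 show the reverse, and the share of all genes separated in either way was not counted.

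Of other pathway genes, 0 of 98 passed the filter in a shared direction (0.157% of all genes for RNA A, 0.23% for RNA B). limma called 0 of the 87 tested, against 0.126% and 0.187% of all tested genes. Of the 87, 27 (31.0%) had RNA A the brighter on both arrays, against 21.6% of all tested genes. RNA B was the brighter on both for 12 (13.8%), against 17.4%. Of 15 interferon ligands on the arrays, 9 were well above background in all 4 channels, each with signals under 100, while Ifna4, Ifnb1, Ifne and Ifng were not well above background in any channel. For 15 of 35 other induced effectors (42.9%, against the same 21.6%) RNA A was the brighter on both arrays, and for 3 (8.57%) RNA B. Among those with a signal of at least 100 throughout, Ifi47, an interferon-induced GTPase, had log2 ratios of 0.81 and 0.16 and Xaf1 0.56 and 0.10. At the same signal, the mean log2 ratios furthest from 0 were those of Tlr9 (-0.25, from 0.41 and -0.92) and Trim25 (-0.21, from 0.11 and -0.54) among sensors and adaptors, which both changed sign between the arrays, of H2-Q4 (-0.26) and Tapbp (0.23) among antigen presentation genes, and of Ifnlr1 (-0.19) and Jak2 (-0.10) among receptor and JAK-STAT genes.

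**Figure D4:**
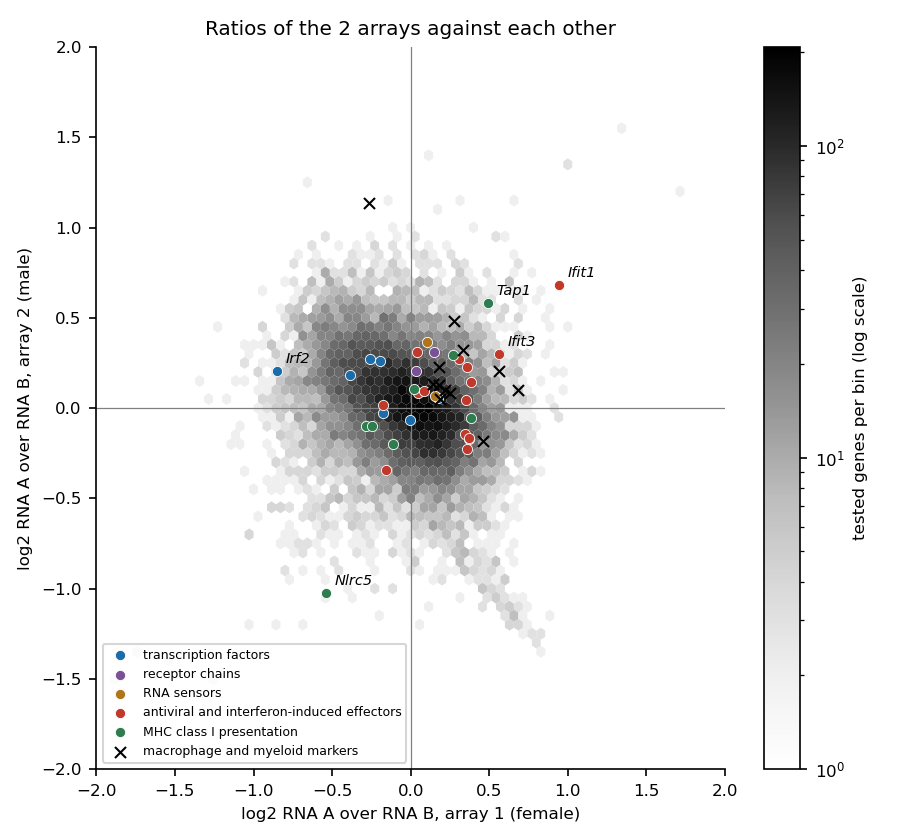
Log2 ratio of RNA A over RNA B on array 1 (horizontal) against array 2 (vertical); grey bins count tested genes, coloured points are interferon genes by role, and crosses macrophage and myeloid markers. Ifit1 lies at 0.95 and 0.68 and Nlrc5 at -0.54 and -1.02, and 36 tested genes lie outside the plotted range.

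Between the arrays, with both dyes averaged and each array centred on its median, the tested interferon genes differed by a median of 0.05 (log2, male minus female). Nlrc5 differed by 0.39, Irf8 by 0.29 and Mx2 by -0.29. There was 1 array per sex, so array and sex cannot be told apart and no test was possible. Xist (1980 and 1651 on array 1, 3.06 and 2.43 on array 2) and Ddx3y (10.9 and 16.7, then 4794 and 4396) matched the labelled sexes.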

How the data were processed

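Per the file headers and labels, Agilent Feature Extraction 10.7.3.1 made the deposited intensities: the authors' processed signals were background-subtracted, given surrogate values near background and dye-normalised by a linear step and LOWESS within the array. Deposited log10 ratios (red over green) served to check the dyes. A table of signed fold changes that the authors deposited (a score whose direction is not stated) correlated with RNA A over RNA B at a Pearson r of 0.997 on both arrays across probes and was used as an alternative. Ratios of dim probes depend on these steps.

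Control spots were left out, as were outlier and manually flagged spots, log2 processed signals were averaged per probe, and a gene took its brightest probe. Probes were named through RefSeq (28293 of 39429), the rest by the files' names, with positions as in the files (mm9). Well above background means that the scanner software set this flag for a share of 0.5 or more of a probe's spots. limma 3.58.1 in R 4.3.3 (intercept model, lmFit and eBayes) was fitted to the 2 log2 ratios of 21429 genes, with Benjamini-Hochberg adjustment over all of them. Figures were drawn with matplotlib 3.10.9. The filter and limma were tested on simulated ratios with independent noise and no effect of dye or sex. That test does not show how they perform on these arrays.

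The genes, lists and alternatives were chosen with earlier results of these data known. The planned wording of the background filter allowed 2 readings. The reading that accepts either RNA on each array was run first (23616 genes, 1 gene called), and after its calls were seen the reading that asks for the same RNA on both arrays, used in earlier work on these data, was made the main one (67 genes called). Both gave 0 calls among the interferon genes. Named are all 37 genes, the other pathway genes that passed the filter or had the largest ratios per list at a signal of 100 throughout, markers at the ends of their list or near background, and Pparg. Ligands near background, Xist and Ddx3y were named after their values were seen. Some pathway genes that this rule names are not reported here.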

Additional observations from a re-analysis of the deposited data

How the results depend on the processing

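The median log2 ratio of the tested interferon genes was 0.100 and stayed above 0 in every setting run: 0.0693 with normexp and loess, 0.0904 with loess on the processed signals, 0.0879 with median centring, 0.0909 with the authors' deposited table, 0.0786 with the mean over probes, 0.102 without a filter on dim probes, and 0.0892 to 0.0937 when either array was left out. The count past 1.5-fold and brighter in RNA A rose from 0 to 1 (Ifit1) without an intensity threshold and when the scanner's background flag replaced it (0.644% and 0.427% of all genes), and to 2 (Oas1a and Tap1) at 1.2-fold (0.664% of all genes). Leaving out an array gave 0 to 1 genes brighter in RNA B (Irf2, on array 1 alone) and 1 to 3 other pathway genes (Tlr9 on array 2 alone; Ifi204, Ifi47 and Rtp4 on array 1 alone), beside shares of all genes that passed of 1.07% (RNA A brighter) or 2.12% (RNA B brighter) from the female array and 1.00% or 1.63% from the male array; the opposite-direction count needs both arrays and could not be computed without one. limma called 0 of the interferon genes in each of 10 settings, with a lowest adjusted p from 0.309 to 1.00, while its calls over all genes ran from 0 to 70: 67 as reported, 28 with loess, 1 with normexp and loess, 0 with the deposited table, 0 with no filter on dim probes and 1 with separate channels. Accepting a gene well above background in either RNA of each array, the reading run first and set aside after its calls were seen, gave 1 gene called of 23616, with a lowest adjusted p of 0.753 among the interferon genes, so the number of calls over all genes rests on that choice and the number among the interferon genes does not. The mean log2 ratio moved by over 1.5 times for Ifit1 (0.81 to 0.43) and Nlrc5 (-0.78 to -0.45) with normexp and loess, and for Nlrc5 (-0.42), Irf1 (-0.04 to -0.25) and Ddx58 (0.11 to 0.17) with the mean over probes, among others. The second Irf1 probe, which enters only that mean, was not well above background in any channel, with signals from 0.93 to 2.55. Only Irf5, near 0, changed sign with scaling (0.01 as reported, -0.00 with loess on the processed signals, -0.01 with median centring). The ratio within an array is already the pair, so the limma fit to these ratios is paired. Only the setting with separate channels ignores the array. Signals under 100, as for Ifit1, Nlrc5 and Isg15, are the least certain.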
